A study of Mus musculus with 2 samples.

Results

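The microvillus structure genes are 9 genes whose proteins build the core, the membrane link, the tip and the lateral links of the microvilli on the apical surface of intestinal cells: Vil1, Pls1, Espn, Eps8, Ezr, Myo1a, Cdhr2, Cdhr5 and Ush1c. They were chosen by name as listed genes, and all 9 were found among the 32285 genes of both count matrices. The measurements were unique molecular identifier (UMI) counts per gene and cell barcode from 10x Genomics Chromium 3' libraries, made from proximal small intestine of C57BL/6 mice. The series is about knockdown of M1 and M3 muscarinic receptors, but both libraries here came from control mice and carry the same genotype label, C57BL/6; control 1 is titled M1 Control and control 2 M3 Control. Each library pools a villus-rich fraction released by EDTA with a crypt-rich fraction released by TrypLE, so position along the crypt to villus axis was not recorded and was read from genes. The labels do not say whether the libraries came from separate animals, and give no age. All p-values therefore rest only on how well the 2 libraries repeat ratios between cell classes. The fit moderates the spread of each gene with that of other genes, and that spread may be technical.

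Microvilli are finger-like protrusions, each held up by a bundle of parallel actin filaments. Villin, plastin 1 and espin bundle the filaments, EPS8 sits at the tip, and ezrin and the motor myosin 1a tie the bundle to the membrane. The cadherins CDHR2 and CDHR5 bind each other between the tips of neighbouring microvilli, and harmonin, the product of Ush1c, anchors them to the core. Enterocytes carry the densest array, the brush border, which is assembled as cells leave the crypt; goblet and enteroendocrine cells carry a smaller apical field, and tuft cells a tuft of long, rigid microvilli.

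The genes lie on 8 chromosomes (GRCm38, GENCODE M21): Vil1 at chr1:74409376-74435559, plus strand, Pls1 at chr9:95752642-95845311, minus strand, Espn at chr4:152120331-152152371, minus strand, Eps8 at chr6:137477245-137654876, minus strand, Ezr at chr17:6738041-6782784, minus strand, Myo1a at chr10:127705170-127720940, plus strand, Cdhr2 at chr13:54701461-54736662, plus strand, Cdhr5 at chr7:141269083-141276786, minus strand and Ush1c at chr7:46195350-46238503, minus strand. Vil1 overlaps Usp37, Ezr overlaps Sytl3 and Ush1c overlaps Gm9860 on the opposite strand, and Eps8 overlaps Gm44106 on its own strand. The promoters of the adhesion cadherins Cdhr2 and Cdhr5 are shown because these genes rose together along the villus and with the mitochondrial share of the cells. Each window runs from 250 bases before to 50 bases after the start (RefSeq, GRCm38.p6), 5′ to 3′ on the gene's strand. Capitals mark CAAAGT in Cdhr2 (chr13:54701213-54701512, plus strand) and CATAAA, which is TTTATG on the opposite strand, in Cdhr5 (chr7:141276737-141277036, minus strand).
Cdhr2: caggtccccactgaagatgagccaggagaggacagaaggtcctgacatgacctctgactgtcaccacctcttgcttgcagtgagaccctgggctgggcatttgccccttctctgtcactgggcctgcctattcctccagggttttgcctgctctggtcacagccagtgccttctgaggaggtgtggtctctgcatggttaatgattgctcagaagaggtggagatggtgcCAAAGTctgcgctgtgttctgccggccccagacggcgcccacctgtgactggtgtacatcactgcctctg
Cdhr5: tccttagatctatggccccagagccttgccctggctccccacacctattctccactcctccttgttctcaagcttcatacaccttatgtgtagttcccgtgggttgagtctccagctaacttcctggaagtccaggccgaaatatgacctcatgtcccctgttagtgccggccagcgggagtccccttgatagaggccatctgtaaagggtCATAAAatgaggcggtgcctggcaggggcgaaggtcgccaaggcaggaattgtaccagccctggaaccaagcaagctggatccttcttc
The marked CAAAGT, a core of the sites bound by nuclear receptors of the HNF4 type, begins 20 bases before the start of Cdhr2, and 14.4% of 32851 promoter windows of the same length hold CAAAGT on either strand. TTTATG, a core of sites bound by the homeobox factor CDX2, begins 39 bases before the start of Cdhr5 and 196 bases before 1 of the 3 starts of Espn, and 11.9% of all windows hold it. The longer CAAAGTCCA, which contains CAAAGT (0.475% of windows), and the TATA box TATAAA (13.6%) were in none of the 10 windows of the 8 genes that matched (Eps8 is not in the table). These are matches of letters and not measured sites. The windows held between 2 (Myo1a and the second Espn start) and 38 CpG dinucleotides (Ezr).

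The files hold 9342 barcodes (54451793 UMIs) for control 1 and 7109 (36139325 UMIs) for control 2. After barcodes with under 500 genes or with 25% or more UMIs from mitochondrially encoded (mt-) genes were left out, 7115 and 4714 cells were kept. Scrublet marked 0.0702% and 0.590% of barcodes, so it did not work in control 1 and multiplets were mostly not removed; 8 kept barcodes were in both libraries. Enterocyte-like cells numbered 3467 and 2302 and carried the enterocyte markers (89264 and 81058 summed marker CPM in control 1 and control 2, against 3589 and 2103 in T or NK-like cells). These cells were of different kinds in depth. Of the enterocyte-like cells, 2877 and 1828 had under 1% mt- UMIs, with median totals of 2350.0 and 2280.5 UMIs, and 251 and 261 had 5% or more, with median totals of 33581 and 15205. The nuclear RNA Malat1 stood at 346 and 496 CPM (UMI counts scaled to a class total of 1000000) in the former and 4419 and 16834 in the latter. A sum over the class is weighted by its deep cells, so the comparisons below are also given within cells of 1% or more mt- UMIs and, where the class held enough of them, within cells under 1% (not for enteroendocrine-like and tuft-like cells); what the depth and mt- share contribute was not tested further.

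In enterocyte-like cells every member was far above its level in T or NK-like cells, which lack a brush border and give the background of free RNA. Levels are CPM of a class without mt- genes, control 1 first. Vil1 stood at 852 and 1001 CPM in enterocyte-like cells against 38.7 and 33.6 in T or NK-like cells. Cdhr2, at 364 and 456 CPM, was 49.5-fold and 53.5-fold above them. The exception in size was Ezr, at 469 and 528 CPM against 132 and 125, a ratio of 3.56 and 4.21; ezrin also links actin to the membrane in lymphocytes. The ratios of the other 6 members lay between 21.4 and 65.6. The share of cells with at least 1 Vil1 UMI, after thinning each cell to 2000 UMIs and leaving out shallower cells (1389 and 960 enterocyte-like, 441 and 427 T or NK-like), was 79% and 81.8% of enterocyte-like cells and 5.54% and 5.68% of T or NK-like cells (unthinned 80.3% and 80.3%, and 11.7% and 11.8%). For Cdhr2 these thinned shares were 18.9% and 27.2% against 1.36% and 1.36% (unthinned 22.1% and 27.5%, and 3.40% and 4.00%). Most enterocyte-like cells showed a Vil1 UMI at that depth, and a minority a Cdhr2 UMI.

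The order of the classes differed by gene. Vil1 was highest in enterocyte-like cells (852 and 1001 CPM) and next in tuft-like cells (695 and 677), then in goblet-like (335 and 319) and enteroendocrine-like cells (366 and 256), which overlapped between libraries. Pls1 and Ezr were also highest in enterocyte-like cells, followed by goblet-like cells. Espn, Cdhr2 and Cdhr5 were highest in tuft-like cells in both libraries. Ush1c differed least among these classes, from 84 CPM in goblet-like to 158 CPM in tuft-like cells, and its enteroendocrine-like values overlapped both those of enterocyte-like and those of tuft-like cells. Eps8 stood at 215 and 392 CPM in enterocyte-like, 268 and 295 in goblet-like and 272 and 263 in enteroendocrine-like cells, an overlapping range, and at 49.6 and 38.9 in tuft-like cells. In Paneth-like cells (15 and 13), no member was above 61.3 CPM.

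**Figure D1:**
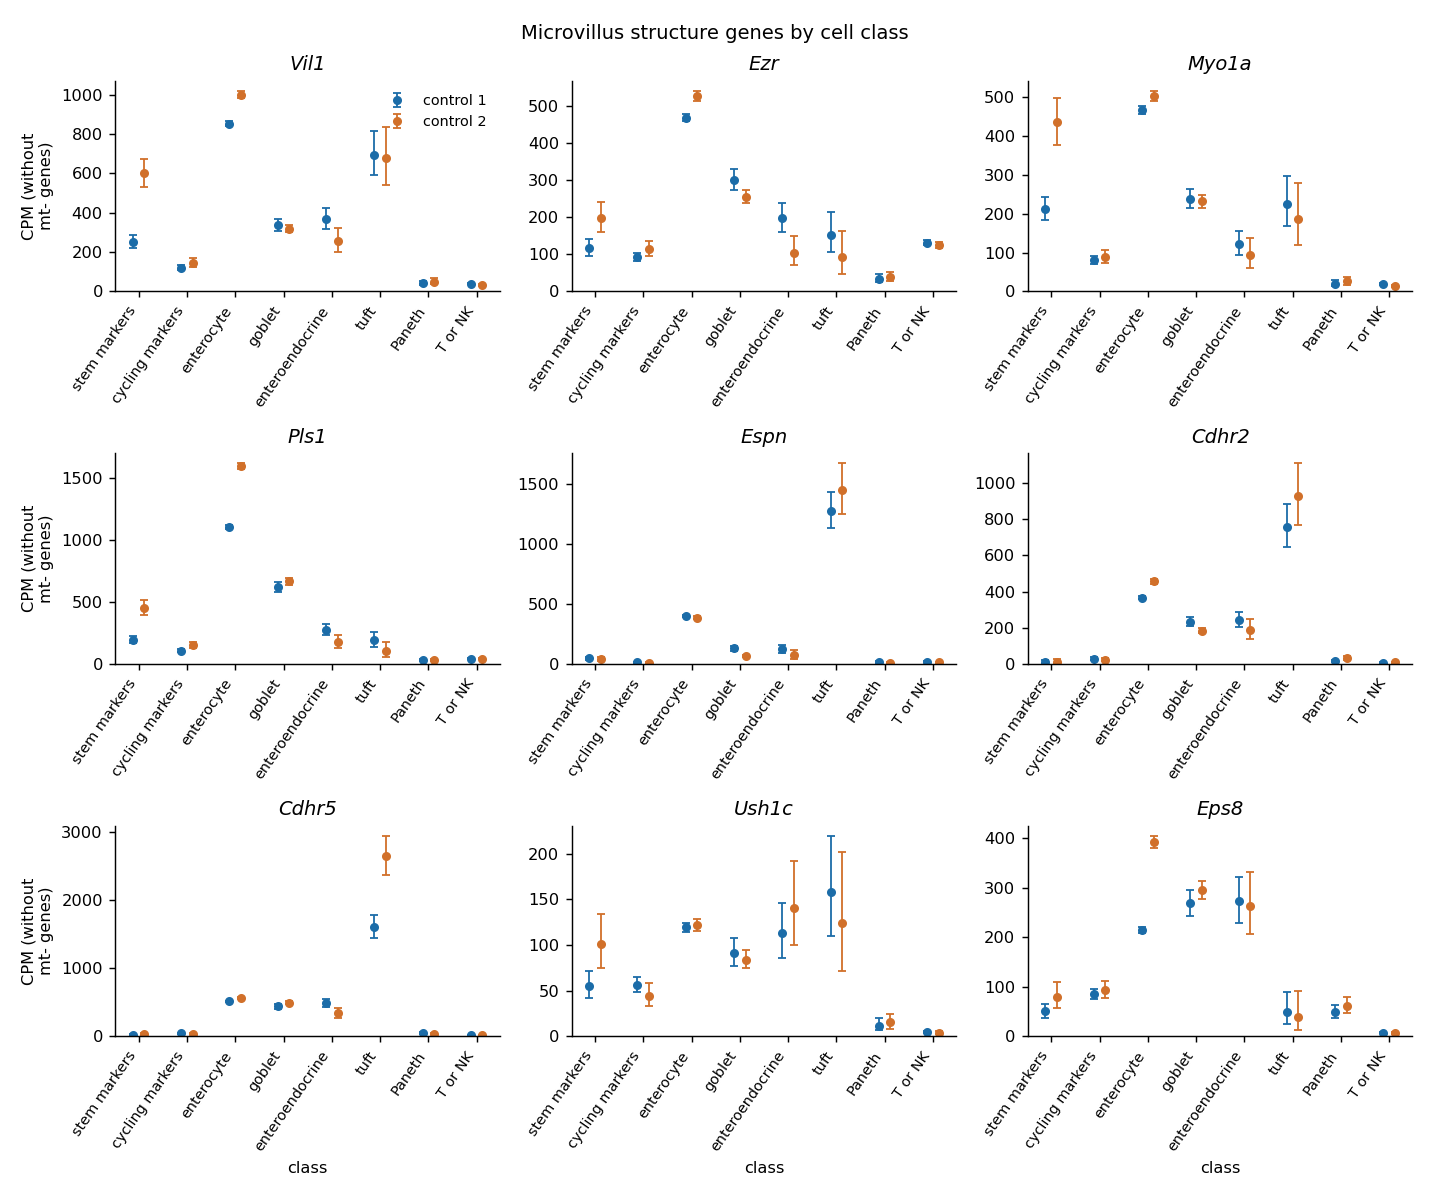
Level of each of the 9 genes (y axis, CPM without mt- genes) in 8 cell classes (x axis) of control 1 and control 2; points are library sums and bars are exact Poisson 95% intervals, which cover counting error only. The stem and cycling classes are shown without enteroendocrine-like cells. Espn, Cdhr2 and Cdhr5 were highest in tuft-like cells, and Pls1, Ezr and Vil1 in enterocyte-like cells.

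From crypt to villus, all 9 genes were lower in progenitor-like cells (583 and 295, the clusters named by stem and cycling markers, with the 24 and 11 enteroendocrine-like cells described below among them) than in enterocyte-like cells, against 31.9% of all 11678 genes tested called lower and 30.8% higher by edgeR's quasi-likelihood test at an adjusted p under 0.05. The median log2 fold change of the members was -2.73, beside 0.00 over all genes tested. Those few cells held 521702 of the 4788382 and 277353 of the 1964621 UMIs of the class, so values without them (559 and 284 cells) are given beside the levels they moved most. Without them all 9 members were again called lower, against 31.8% of all genes lower and 30.3% higher. The summed T or NK markers stood at 1774 and 2323 CPM in the class, against 360.2 and 356 in enterocyte-like cells; their part was not tested. The steepest change was that of the bundler Espn, at 31.7 and 22.9 CPM in progenitor-like cells and 395 and 385 in enterocyte-like cells, with no overlap; the fitted log2 fold change was -4.48 ± 0.24 (SE; adjusted p 6.56e-06). Without enteroendocrine-like cells Espn was at 20.9 and 14.8 CPM (log2 -4.94 ± 0.25). The bundler Pls1 fell from 1105 and 1598 to 143 and 227 CPM (log2 -3.53 ± 0.27, adjusted p 1.64e-05). Vil1 stood at 175 and 271 CPM in progenitor-like cells (log2 -2.73 ± 0.25). Cells of the crypt thus already held more Vil1 than T or NK-like cells did (38.7 and 33.6).

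The adhesion cadherins were low in the crypt and the scaffold less so. Cdhr2 stood at 48.9 and 42.8 CPM in progenitor-like cells (log2 -3.79 ± 0.23) and Cdhr5 at 88.1 and 80.9 (log2 -3.31 ± 0.23). Without enteroendocrine-like cells they were lower still, Cdhr2 at 25.3 and 19 CPM (log2 -4.67 ± 0.27) and Cdhr5 at 39.1 and 38.5 (log2 -4.29 ± 0.24). The log2 values of the other 6 members moved by less without those cells, and Ush1c kept the smallest change (-1.56). Ush1c, at 62.2 and 71.8 CPM against 119 and 122, had the smallest change of the 9 (log2 -1.50 ± 0.18, adjusted p 0.000147). The membrane linkers Ezr and Myo1a and the tip gene Eps8 had log2 fold changes of -2.69, -2.45 and -2.09. The fitted changes are scaled by TMM, a scaling in which most genes are assumed not to change; dividing by total UMIs moved the median of all genes by 0.65 (log2) in this comparison, and all 9 members were still called lower. They were also all called lower within cells of under 1% mt- UMIs (27.1% of all genes) and within cells of 1% or more (28.0%). No member was called higher in any of these fits.

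The crypt clusters differed from each other. Without enteroendocrine-like cells, Vil1 stood at 252 and 601 CPM in the cluster with stem markers (300 and 169 cells) and at 121 and 145 in the cycling cluster (259 and 115 cells). Myo1a stood at 212 and 435 against 79.9 and 89.2, and Pls1 at 193 and 449.5 against 108 and 151. All 3 were higher in the cluster with stem markers in both libraries, and control 2 was above control 1 for each. Cdhr2 went the other way, at 12 and 12.6 against 29.4 and 21.5. This difference was not tested, and the sums of the cycling cluster came from deeper cells (median totals of 3891 and 2506 UMIs against 2612 and 1931). Its deepest cells held 306942 and 217675 of its 3425402 and 1267914 UMIs. In the cluster with stem markers they held 22491 and 10577 of 1004464 and 479094. At Leiden resolution 2.0 a cluster named by stem markers and led by Dmbt1 and Olfm4 held 4591536 and 1383257 UMIs in 63 and 26 cells. The contrast is thus also one of depth, and the 2 names depend on the clustering. The summed enterocyte markers stood at 11048 and 16593 CPM in the cluster with stem markers, against 3396 and 2380 in the cycling cluster. The summed T or NK markers stood at 479 and 471 CPM against 2429 and 3547. The part of either in these levels was not tested.

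Within enterocyte-like cells, position was read from a landmark score: the share of genes known from the upper villus (Ada, Nt5e, Slc28a2, Apoa4, Creb3l3, Klf4, Egfr, Enpp3) against genes of the lower villus (Reg3b, Reg3g, Reg1, Lypd8, Nlrp6, Il18, Ccl25, Gsdmc2, Gsdmc4, Dmbt1), none of them a member. The 3049 and 2059 cells with at least 3 landmark UMIs were split by rank into 3 zones of equal cell number within each library, lower, middle and upper; 483 and 239 cells lay within 0.05 of the lower cut and 158 and 118 within 0.05 of the upper cut, so the zones are ranges and not cell types. In the upper zone, 5 of 9 members were higher than in the lower zone and none was lower, against 20.3% and 20.8% of 9478 genes tested; their median log2 fold change was 1.00, beside 0.00 over all genes.

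The largest difference was that of Cdhr2, at 137 and 203 CPM in the lower, 299 and 349 in the middle and 772 and 804 in the upper zone. The lower and upper zones did not overlap, and the change was log2 2.22 ± 0.33 (adjusted p 1.32e-07). Its partner Cdhr5 rose from 273 and 364 to 914 and 805 CPM (log2 1.43 ± 0.33, adjusted p 0.000313). The scaffold of both, Ush1c, stood at 112 and 111 and 129.6 and 127 CPM, a log2 difference of 0.19 ± 0.29 that did not pass the test (adjusted p 0.645). The tip gene Eps8 rose from 128 and 164 to 350.1 and 766 CPM (log2 1.82 ± 0.33), with the libraries far apart in the upper zone.

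Of the genes of the core and the membrane link, Ezr rose from 305 and 334 to 697 and 722 CPM (log2 1.14 ± 0.32, adjusted p 0.00313) and Espn from 257 and 257 to 595 and 454 CPM (log2 1.0 ± 0.31, adjusted p 0.00805). Pls1, at 745 and 1231 and 1550.5 and 1781 CPM, and Vil1, at 660.4 and 814 and 1082 and 1126, were higher in both libraries but did not pass (adjusted p 0.0568 and 0.158). Myo1a moved in opposite directions in the 2 libraries, from 417 to 506 CPM in control 1 and from 496 to 456 in control 2. Without the library as a block, only Cdhr2 and Eps8 passed.

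The zones also differed in the cells they held. Of scored cells with 5% or more mt- UMIs, 48.4% and 63.9% fell in the upper zone, against 31.7% and 28.8% of those under 1%, and Malat1 rose from 1059 and 3238 CPM in the lower to 3952 and 16214 in the upper zone. The summed goblet markers stood at 1995 and 1411 CPM in the lower and 1255 and 12212 in the upper zone, and their part in the result was not tested. Among cells under 1% mt- UMIs alone, 6 members were higher in the upper zone (11.1% of all genes were): Cdhr2 (log2 2.0), Cdhr5 (1.74), Espn (0.72), Ezr (0.64), Eps8 (0.47) and Pls1 (0.32). Among cells of 1% or more, 4 were (17.2% of all genes): Eps8 (2.17), Cdhr2 (2.10), Espn (1.69) and Ezr (1.54), while Cdhr5 was at 1.23 (adjusted p 0.0629). Cdhr2 thus had a similar log2 difference in both kinds of cell, from very different levels: 40.3 and 64.8 to 212 and 237 CPM in the first and 228 and 354 to 1179 and 1088 in the second. Eps8 went from 113 and 134 to 181 and 193 CPM in the first and from 142 and 197 to 473 and 1053 in the second; whether the steps differ was not tested.

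The enterocyte-like clusters, made without the members, differed most in the same adhesion and tip genes, as a description. Cdhr2 stood at 22 and 27.2 CPM in a cluster led by Tstd1, Reg3a and Gsta1 (1024 and 206 cells) and at 497 and 439.7 in a cluster led by Apoa1, Cyp3a11 and Apoa4 (572 and 397 cells), both made mostly of shallow cells with median mt- shares of 0.144% and 0.134% in the first and 0.180% and 0.170% in the second. Cdhr5 stood at 58.6 and 98 against 1065 and 1043 CPM in the same clusters. Eps8 reached 1124 and 1531 CPM in a cluster of 31 and 88 deep cells led by Clca4a, Slc23a4 and Lama3, where Myo1a was at 212 and 305 CPM. In a cluster led by 9130016M20Rik and Kitl, Vil1 reached 1775 and 1928 CPM and Myo1a 1132 and 936; only 26 of its cells came from control 1 and 172 from control 2. High Cdhr2 was therefore also found in a cluster of low median mt- share, while the highest Eps8 was in a cluster with median mt- shares of 19.2% and 15.7%. The sums of the cluster led by Apoa1 are weighted by its deep cells, the deepest of 49767 and 42657 UMIs, and were not split by mt- share.

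**Figure D2:**
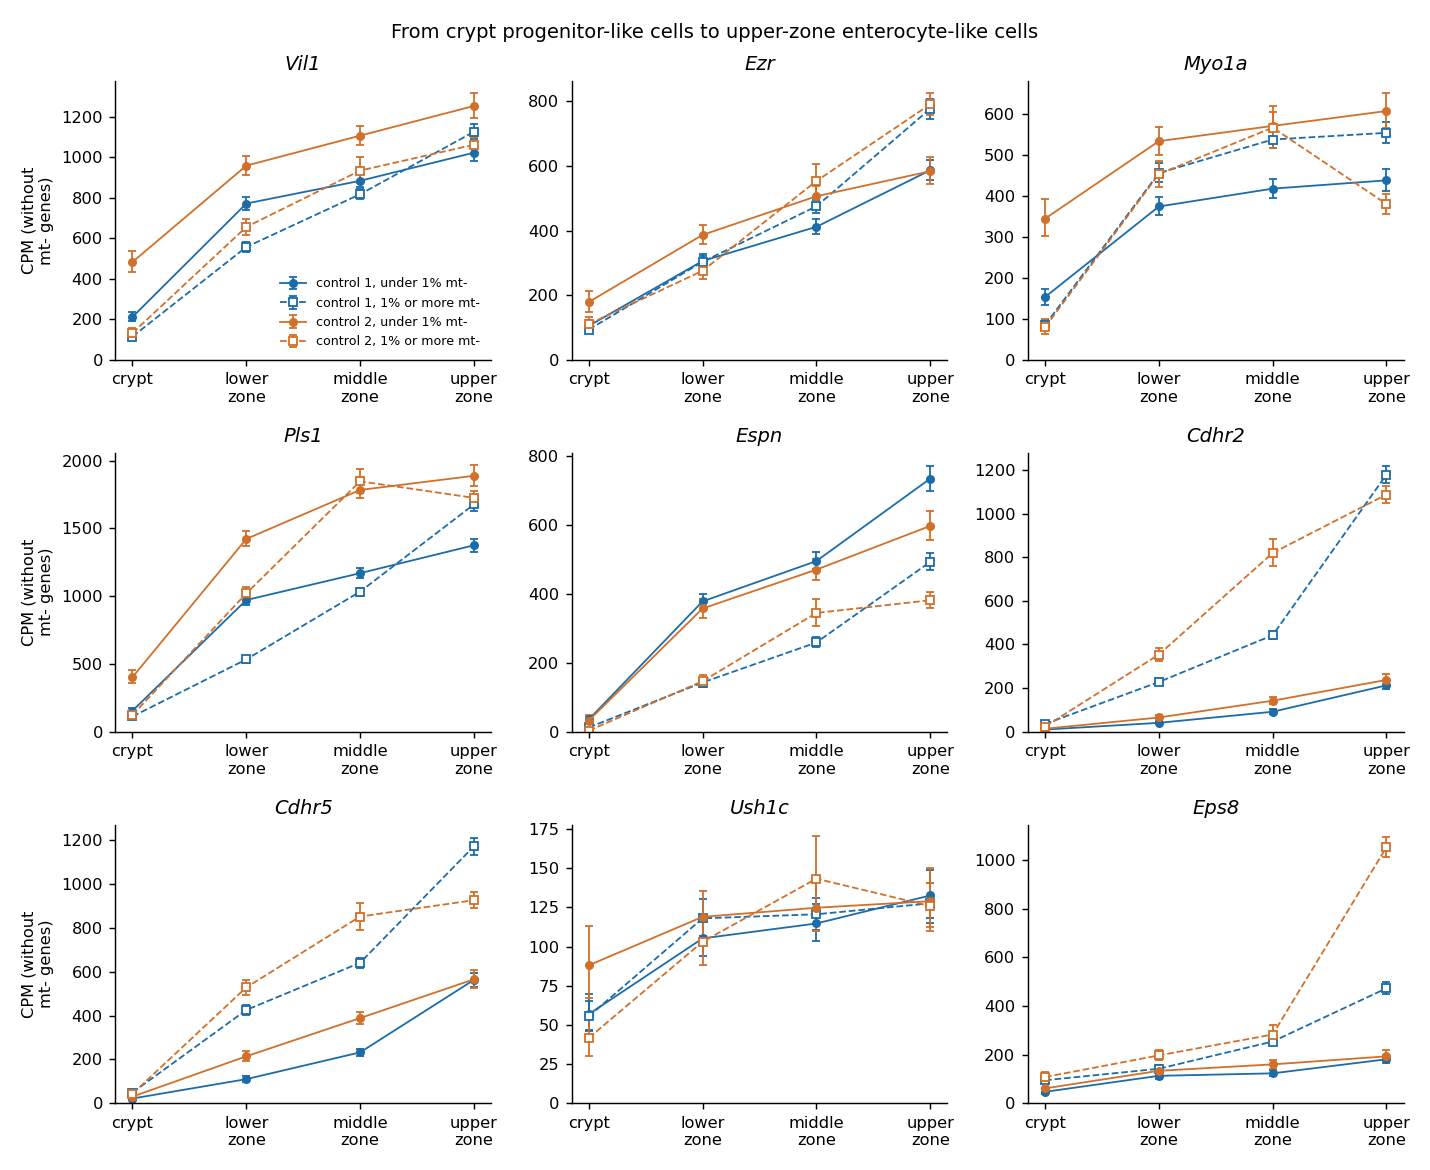
Level of each gene (y axis, CPM without mt- genes) in crypt progenitor-like cells (without enteroendocrine-like cells) and in the lower, middle and upper zones of enterocyte-like cells (x axis), for each library and for cells under 1% (filled, solid) and of 1% or more mt- UMIs (open, dashed); bars are exact Poisson 95% intervals. Every line lay higher in the lower zone than in the crypt, and Cdhr2 and Eps8 were highest in upper-zone cells of 1% or more mt- UMIs.

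The comparisons of goblet-like, enteroendocrine-like and tuft-like cells share the enterocyte-like sums. Goblet-like cells (113 and 251), which secrete mucus, held less of 6 of the 9 genes than enterocyte-like cells and more of none, against 27.5% lower and 21.8% higher of 10373 genes tested; the members' median log2 fold change was -0.86, beside -0.08 over all genes. Espn was at 129 and 62.1 CPM in goblet-like and 395 and 385 in enterocyte-like cells, without overlap, and fell the most (log2 -2.0 ± 0.28, adjusted p 0.00174). Vil1, at 335 and 319 CPM, had a log2 change of -1.37 ± 0.21 (adjusted p 0.00267). Pls1 (624 and 669 CPM), Myo1a (238 and 232) and Ezr (301 and 256) were also called lower, with log2 changes of -0.92, -0.92 and -0.72. The cadherins differed from each other. Cdhr2, at 232 and 184 CPM, was called lower (log2 -0.86 ± 0.23, adjusted p 0.021), and Cdhr5, at 437 and 494 CPM against 515 and 562, did not pass (log2 -0.09 ± 0.20, adjusted p 0.751). Neither did the scaffold Ush1c (log2 -0.34 ± 0.19) nor the tip gene Eps8 (log2 0.08 ± 0.23).

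Without the library as a block, only Vil1 and Espn were called lower. The share of deep cells differed between the classes: 90 of 113 and 204 of 251 goblet-like cells had 1% or more mt- UMIs, against 590 of 3467 and 474 of 2302 enterocyte-like cells. Within cells of 1% or more, 3 members were called lower (20.1% of all genes): Espn (log2 -1.46), Cdhr2 (-1.41) and Vil1 (-1.11). Within cells under 1%, where only 23 and 47 cells were goblet-like, 6 were (21.5% of all genes): Espn (-2.52), Vil1 (-1.96), Pls1 (-1.78), Myo1a (-1.72), Ush1c (-0.87) and Ezr (-0.75). Cdhr2 was at 0.33 there and did not pass. Espn and Vil1 were thus the members called lower in every one of these fits.

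Enteroendocrine-like cells, which secrete hormones, were 24 and 11 cells taken from a finer clustering, since none of the clusters of the main clustering was named so; this choice was made after the data were seen. They carried 156789 and 144934 CPM of their markers. Of the 9 genes, 7 were lower than in enterocyte-like cells and none was higher, against 24.6% and 20.6% of 10921 genes tested, and the median log2 fold change was -2.33, beside -0.12 over all genes. Pls1 was at 272 and 173 CPM against 1105 and 1598 and fell the most (log2 -3.34 ± 0.49, adjusted p 5.45e-06). Myo1a was at 121 and 93.7 CPM (log2 -2.92 ± 0.41), Espn at 121 and 72.1 (-2.77 ± 0.41), and Ezr at 197 and 105 (-2.50 ± 0.42). None of these overlapped enterocyte-like levels. Vil1 was at 366 and 256 CPM (log2 -2.33 ± 0.43).

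In these cells the adhesion genes and the tip gene had the smallest differences of the 9. Cdhr2 was at 242 and 187 CPM (log2 -1.67 ± 0.39, adjusted p 0.00124) and Cdhr5 at 489 and 339 CPM (log2 -1.14 ± 0.40, adjusted p 0.0224). Ush1c, at 113 and 141 CPM, and Eps8, at 272 and 263 CPM, did not pass (adjusted p 0.111 and 0.0737). All but 1 of these cells had 1% or more mt- UMIs, and within such cells 6 members were called lower (16.8% of all genes), with Cdhr5 no longer among them (log2 -1.35, adjusted p 0.057). Scaling by total UMIs moved the median of all genes by 0.75 in this comparison, and Cdhr5 was not called under it or without the library block.

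Tuft-like cells, chemosensory cells with long microvilli, were 18 and 8 cells with 18776 and 21461 CPM of tuft markers. They split the members: the bundler Espn and the cadherins were high, and Pls1, Ezr, Myo1a and Eps8 were low. Cdhr5 was at 1601 and 2647 CPM (Poisson 95% intervals 1439 to 1777 and 2373 to 2943) against 515 and 562 in enterocyte-like cells, and Espn at 1277 and 1448 CPM against 395 and 385. Neither overlapped between the classes, but neither passed the test: Cdhr5 had a log2 difference of 1.40 ± 0.59 (adjusted p 0.0782) and Espn of 1.26 ± 0.54 (adjusted p 0.081). Cdhr2 was at 758 and 926 CPM against 364 and 456 (log2 0.50 ± 0.50, adjusted p 0.551). A single cell gave 25.9% and 39.4% of the Cdhr5 UMIs of the class and 21.2% and 41.4% of those of Espn; 18 and 7 of the cells had an Espn UMI.

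Of the 9 members, 4 were called lower and none higher, against 11.8% and 8.36% of 9922 genes tested, with a median log2 fold change of -0.97 beside -0.21. Pls1 was at 189 and 101 CPM against 1105 and 1598 (log2 -3.73 ± 0.64, adjusted p 1.69e-07). Eps8 was at 49.6 and 38.9 CPM, from 11 and 5 UMIs, against 215 and 392 (log2 -3.17 ± 0.53, adjusted p 4.51e-08). Ezr, at 153 and 93.4 CPM, and Myo1a, at 226 and 187, had log2 changes of -2.54 ± 0.52 and -1.77 ± 0.49. In Ezr the tuft-like level was near that of T or NK-like cells (132 and 125 CPM). Vil1 (695 and 677 CPM) and Ush1c (158 and 125) did not pass.

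The higher side of this split depended on the fit. Scaling by total UMIs, which moved the median of all genes by 0.55, called Espn (log2 1.81, adjusted p 0.00426) and Cdhr5 (1.94, 0.00474) higher, and so did DESeq2 and the fit without a library block. Within cells of 1% or more mt- UMIs (10 and 6 tuft-like cells), Espn was called higher (log2 1.74, adjusted p 0.0391; 7.60% of all genes were), and Cdhr2 stood level with enterocyte-like cells (log2 -0.05). After thinning each cell to 1000 UMIs, Espn was at log2 0.22 and Cdhr2 and Cdhr5 were called higher (1.78 and 1.62). Pls1, Ezr and Eps8 were called lower in each of the fits named here.

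**Figure D3:**
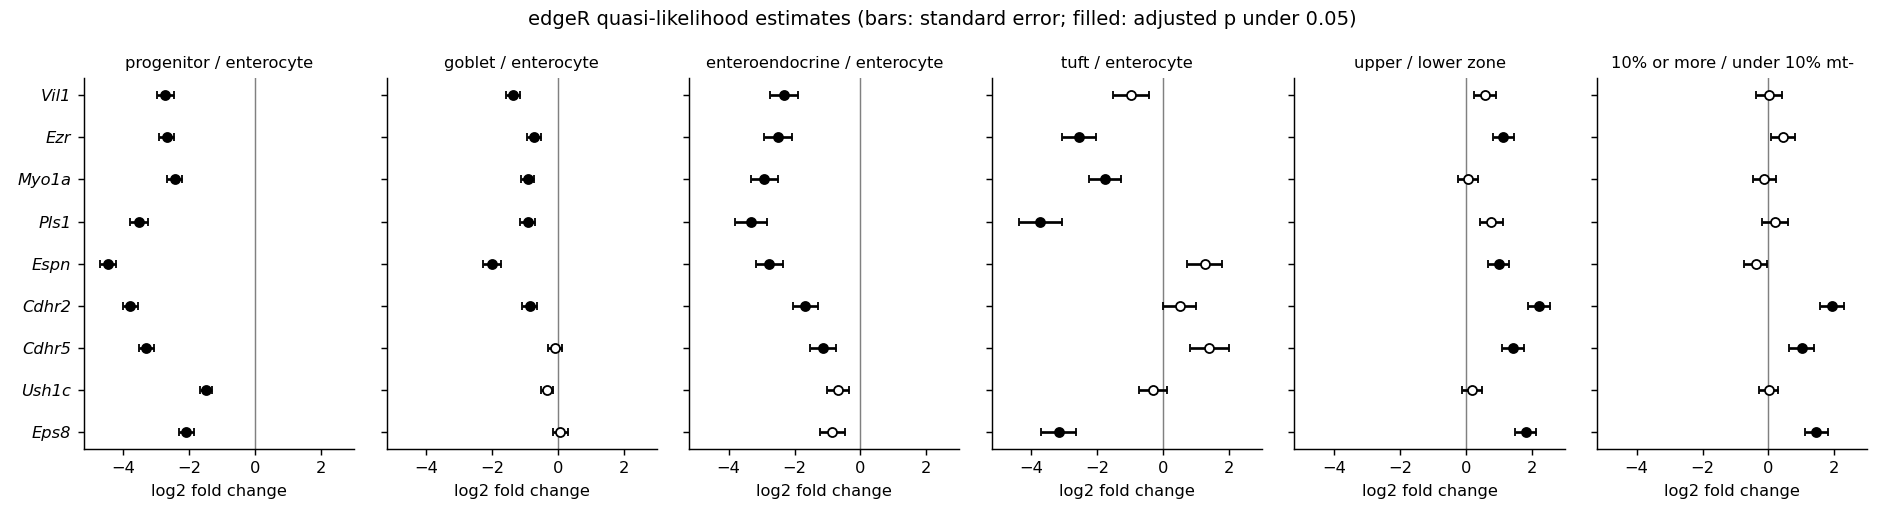
Log2 fold change of each of the 9 genes (x axis) in the 6 comparisons, from edgeR's quasi-likelihood fit on library sums. Bars are standard errors derived from the F statistic and filled points have an adjusted p under 0.05. All 9 genes were lower in progenitor-like cells, and in tuft-like cells Espn, Cdhr2 and Cdhr5 lay to the right of 0 while Pls1 and Eps8 lay far to the left.

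By mt- share of the enterocyte-like cells, 3 of the genes that rose along the villus were higher in cells of high share. That count was near the share of all genes called higher, so it is not a trait of the members as a set. In cells with 10% or more mt- UMIs (138 and 170), Cdhr2, Cdhr5 and Eps8 were higher than in cells with under 10% (3329 and 2132) and no member was lower, against 27.1% and 26.2% of 9843 genes tested; the median of the members was 0.21, beside -0.01 over all genes. Cdhr2 was at 984 and 1033 CPM against 220.0 and 234, without overlap (log2 1.93 ± 0.38, adjusted p 2.59e-06). Cdhr5 was at 1023 and 910.4 against 396 and 428 CPM (log2 1.01 ± 0.37, adjusted p 0.0152), and Eps8 at 431 and 845 against 164 and 218 (log2 1.46 ± 0.36, adjusted p 0.00019). Without the library as a block, Cdhr2 alone passed. Malat1 was at 7018 and 19843 CPM in the cells of high share against 1161 and 3122, and the summed goblet markers at 3821 and 8881 against 1170.4 and 4101; their part was not tested. Vil1, Ush1c, Myo1a, Pls1, Ezr and Espn had log2 differences of 0.02, 0.01, -0.12, 0.21, 0.44 and -0.39, none past the test.

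Setting cells of 5% or more against cells under 1%, an added comparison, gave the extremes of the class. Cdhr2 was at 634 and 862 CPM against 99.7 and 134 (log2 2.32 ± 0.23). Cdhr5 (log2 1.0 ± 0.22) and Eps8 (1.29 ± 0.22) were again higher. Espn, at 283 and 292 CPM against 522 and 467, was called lower (log2 -1.14 ± 0.22, adjusted p 1.31e-06), and so was Vil1, at 835 and 912 against 882 and 1089 (log2 -0.53 ± 0.23, adjusted p 0.0408). Of all genes, 30.4% were called higher and 27.2% lower here. Ush1c was at 122 and 123 and 116 and 122 CPM and did not pass. Members were therefore called in both directions, the cadherins and the tip gene higher and the core genes Espn and Vil1 lower. Both counts were near the shares of all genes. At Leiden resolution 2.0 the enterocyte-like class held 17272891 and 10084085 UMIs without mt- genes, against 20080502 and 10707939 here. A cluster there, named by stem markers and led by Dmbt1 and Olfm4, held 63 and 26 deep cells. Their median mt- shares were 6.63% and 6.25%. The part of such cells in these values was not tested.

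The levels did not follow the mt- share evenly. Cdhr2 was at 94.6 and 134 CPM in cells of 0 to 0.25% mt- UMIs, at 171 and 168 at 1 to 2%, at 369 and 121 at 2 to 5%, at 388 and 573 at 5 to 10%, at 840.1 and 999.8 at 10 to 15% and at 1199.6 and 1054 at 15 to 25%. Median totals were 1982 and 1662 UMIs at 1 to 2%, 2077 and 1630.5 at 2 to 5%, 43080.0 and 4475 at 5 to 10%, 33877.5 and 19652 at 10 to 15% and 21118 and 15811 at 15 to 25%. In control 1, Cdhr2 was higher at 2 to 5% than at 1 to 2% at a like median depth. It was nearly level between 2 to 5% and 5 to 10%, across the rise in median depth. The sums are weighted by deep cells: in control 1 the 2 to 5% bin held 1382513 UMIs in 135 cells, the deepest of 259561. The 1 to 2% bin held 499109 UMIs in 204 cells, the deepest of 9071. What depth contributes to these levels was not tested. Vil1 was lowest at 5 to 10% (694 and 652 CPM) and stood at 1016 and 1115 at 15 to 25%. Eps8 went from 217 and 426 CPM at 5 to 10% to 525 and 903 at 15 to 25%, with control 2 above control 1 throughout those bins.

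**Figure D4:**
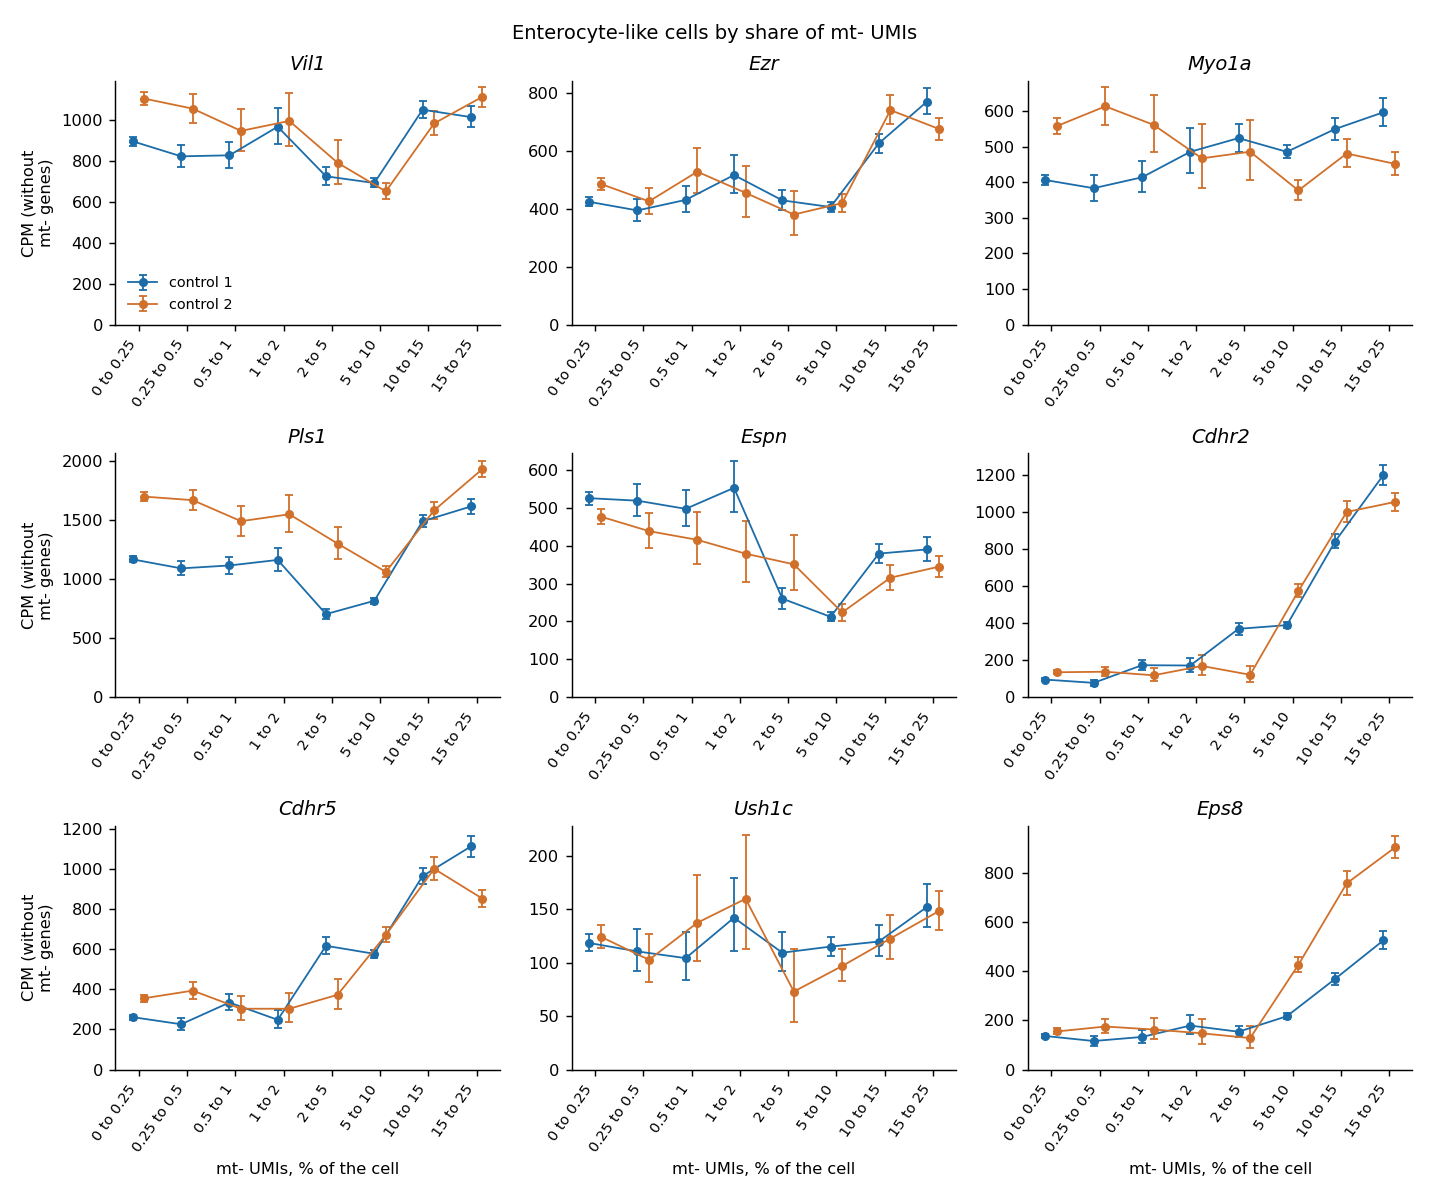
Level of each gene (y axis, CPM without mt- genes) in enterocyte-like cells in 8 bins of mt- share (x axis, percent of the cell's UMIs) of both libraries; bars are exact Poisson 95% intervals. Cdhr2, Cdhr5 and Eps8 were highest above 10%, Vil1 was lowest at 5 to 10%, and Ush1c stayed between 73.1 and 159.9 CPM.

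At a common depth Cdhr2 and Espn kept their order. After thinning each cell to 2000 UMIs, 58.9% and 68.1% of cells of 5% or more had a Cdhr2 UMI, against 12.1% and 19.5% of cells under 1% (unthinned 86.1% and 77.8% against 16.6% and 21.6%). For Espn the order was the other way, 44.2% and 46.5% against 60.7% and 57.4% (unthinned 85.3% and 77.8% against 68.2% and 62.6%). Vil1, called lower by its level, showed no such order in its thinned shares, 79% and 81.2% against 77.5% and 82.5% (unthinned 94.8% and 91.2% against 79.7% and 79.3%). In these shares 27 and 48 cells of 5% or more and 1188 and 775 cells under 1% were too shallow and left out. Cells of 1% or more were also compared with cells under 1% within a zone, in fits added after the data were seen. Each zone spans a range of scores, so position was matched only coarsely. The landmark Apoa4 itself had a level ratio of 2.79 and 3.47 for cells of 5% or more over cells under 1%. In the lower zone, Cdhr2 (log2 2.08 ± 0.20) and Cdhr5 (1.23 ± 0.19) were higher and Espn (-1.74 ± 0.19), Pls1 (-1.06 ± 0.18), Vil1 (-0.90 ± 0.18) and Ezr (-0.64 ± 0.19) lower (26.7% and 24.2% of all genes). The summed enterocyte markers in that zone stood at 44669 and 54610 CPM in cells of 1% or more, against 97896 and 92909 under 1%. What this difference contributes was not tested. In the upper zone, Cdhr2 (2.18 ± 0.44) and Eps8 (1.75 ± 0.43) were higher and none was lower (25.4% and 24.1% of all genes), with Cdhr5 at 0.72 (adjusted p 0.145). In each zone the number of members called higher was near the share of all genes. Cdhr2 was the member called higher in every one of these fits.

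Other enterocyte genes gave a scale for these ratios, as a description chosen after their values were seen and without a test, since they named the clusters. The level ratio of cells of 5% or more over cells under 1% was 0.477 and 0.291 for Fabp1, 0.381 and 0.256 for Fabp2 and 0.466 and 0.303 for Rbp2, whose products are cytosolic lipid and retinol binding proteins. It was 9.34 and 7.23 for the disaccharidase Lct, 8.20 and 5.62 for the lipid transfer protein Mttp, 5.43 and 3.34 for the glucose transporter Slc5a1 and 1.93 and 1.71 for the secreted apolipoprotein Apoa1, which all enter the membrane or the secretory path. Among the members, the membrane-spanning cadherins Cdhr2 (6.35 and 6.45) and Cdhr5 (2.89 and 2.30) lay in the range of the second group, and so did Eps8 (2.29 and 4.35), whose product is cytoplasmic. The other 6 members lay between 0.542 (Espn) and 1.29 (Myo1a, in control 1). Ratios above 1 were not limited to genes of membrane or secreted products. The cytoskeletal marker Krt20 was at 1.20 and 1.84. Several genes of the list of 40 other microvillus, terminal web and apical delivery genes read below were higher. Among them were the myosin heavy chains Myh14 (6.06 and 4.46) and Myh9 (4.49 and 5.49) and the spectrin Sptbn1 (5.02 and 3.32). So were the motors Myo1e (5.99 and 18.2), Myo1d (4.79 and 3.70) and Myo6 (4.52 and 2.97). Others lay below 1 in both libraries, among them Actb (0.747 and 0.676), Actg1 (0.920 and 0.724) and Capzb (0.956 and 0.813). Of that list, 14 of the 37 tested were called higher and 13 lower in this comparison, against 30.4% and 27.2% of all genes.

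**Figure D5:**
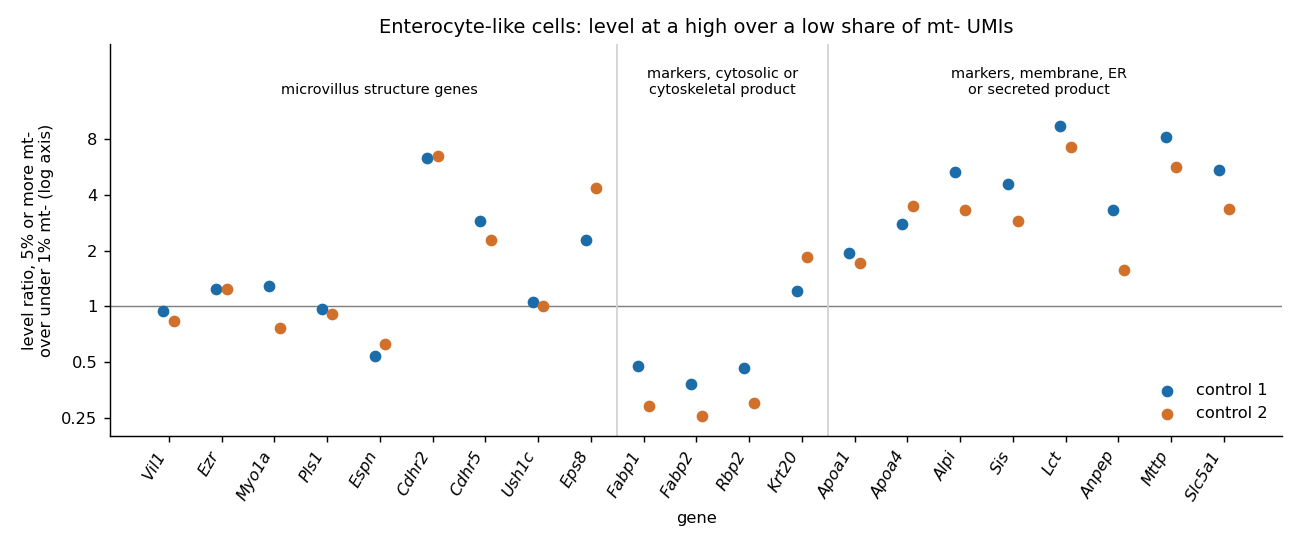
Ratio of the level in enterocyte-like cells of 5% or more mt- UMIs to that in cells under 1% (y axis, log scale) for the 9 microvillus genes and 12 enterocyte markers (x axis), in control 1 and control 2; the grey line is a ratio of 1. All 8 markers with a membrane, ER or secreted product lay above 1, 3 of the 4 cytosolic or cytoskeletal markers plotted lay below it, and Cdhr2, Cdhr5 and Eps8 lay above it.

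The other genes of microvilli, terminal web and apical delivery, a list of 40, were read beside the members. In progenitor-like cells 24 of the 39 tested were lower and 8 higher, against 31.9% and 30.8% of all genes (median log2 -1.21, beside 0.00): the apical scaffold Pdzk1 (-4.54) and the membrane protein Tmigd1 (-4.51) were lowest, and plastin 3, Pls3 (3.41), and the kinase Stk26 (2.13) highest. Without the enteroendocrine-like cells, in which Pls3 was also high, Pls3 was at 3.20 (adjusted p 0.00174), 25 of the 39 were lower and 8 higher. Pls3 thus was higher in these crypt cells, where its relative Pls1 was lower. Its change starts from very low levels, 0.221 and 0.549 CPM in enterocyte-like cells under 1% mt- UMIs and 0.109 and 1.48 in those of 5% or more. Stk26 was at 0.332 and 1.10 CPM in enterocyte-like cells under 1%. The fold changes do not show that Pls3 reached the amount of Pls1. In the upper zone 15 of 34 were higher and 2 lower, against 20.3% and 20.8% of all genes (median 0.63, beside 0.00), led by Tmigd1 (3.90) and Stk10, an ezrin kinase (3.21), with the spectrin-binding adducin Add3 (-2.17) and Baiap2l2 (-0.74) lower. In cells of 10% or more mt- UMIs 15 of 36 were higher and 6 lower, against 27.1% and 26.2% (median 0.29, beside -0.01), with the motor Myo1e (2.52) and Stk10 (2.10) at the top and Calml4 (-1.43), a light chain of the adhesion complex, and the SNARE Vamp8 (-1.03) at the bottom. Within the adhesion complex, Myo7b, the motor that carries it, was higher in those cells (1.60; chosen after its value was seen), as Cdhr2 and Cdhr5 were.

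In goblet-like cells 15 of 37 were lower and 8 higher, against 27.5% and 21.8% of all genes (median -0.08, beside -0.08), so the higher count and the median were at the background. The values ran from Tmigd1 (-5.00) and Pdzk1 (-3.95) to the motor Myo1c (2.14) and the ezrin kinase Slk (2.08). In enteroendocrine-like cells 19 of 38 were lower and 5 higher, against 24.6% and 20.6% of all genes (median -1.21, beside -0.12). The apical delivery GTPase Rab8a (-3.26) and the actin nucleator Cobl (-2.94) were lowest there, and Pls3 (4.85) and Eps8l1, a relative of Eps8 (2.07), highest. In tuft-like cells 10 of 36 were lower and 3 higher, against 11.8% and 8.36% of all genes (median -0.66, beside -0.21), the higher count being at the background. Radixin, Rdx (4.25), a relative of ezrin, and twinfilin 2, Twf2 (2.38), were highest there, while Pdzk1 (-5.46) and Add3 (-3.76) were lowest. In tuft-like cells the ezrin gene was therefore called lower and the radixin gene higher than in enterocyte-like cells. The enterocyte-like levels behind several of the highest values were very low. In enterocyte-like cells under 1% mt- UMIs, Rdx was at 1.88 and 3.29 CPM, Twf2 at 5.20 and 4.39, Eps8l1 at 1.11 and 1.65 and Pls3 at 0.221 and 0.549. These fold changes do not compare the amounts of Rdx and Ezr.

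Over the 6 epithelial classes of both libraries (12 sums), the genes whose pattern was most like the mean of the 9 members were Optn (Pearson r 0.99), Tmbim6 (0.99), Ndfip2 (0.98), Myh14 (0.98) and Myo15b (0.98), out of 5541 genes with a mean of at least 20 CPM. The sums share libraries and depth, and these values are a description. Optn, for instance, stood at 147 and 216 CPM in enterocyte-like, 139.8 and 140.1 in tuft-like and 23.4 and 25.5 in progenitor-like cells without enteroendocrine-like cells. Of the members themselves, Vil1 was nearest to the mean of the 9 (r 0.97) and Eps8 farthest (r 0.52).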

How the data were processed

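The deposited counts are UMIs per gene and barcode, whole numbers in filtered matrices that carry a Cell Ranger 7.1.0 header; the submitters' processing notes list Cell Ranger 6.1 and 7.1.0, with GRCm38 and mm10 as builds. How barcodes were kept, the annotation release and the use of intron reads are not given in the sources used here.

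Barcodes with at least 500 genes and under 25% mt- UMIs were kept and Scrublet calls removed (expected rate 0.06). Cells were clustered jointly in scanpy 1.11.5 (10000 UMIs per cell, 2000 variable genes, 40 components, 15 neighbours, Leiden resolution 1.0) without members, brush border list, mt- and ribosomal protein genes. A cluster was named for the class whose markers (at least 3 detected) scored highest on average and stayed unnamed where its leading genes went against it, a rule set after the data were seen; a cluster led by Siglech stayed unnamed. Enteroendocrine-like cells came from resolution 2.0. Of the enterocyte-like cells, 418 and 243 had too few landmark UMIs for a score.

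UMIs without mt- genes were summed per library and class and tested with edgeR 4.0.16 (R 4.3.3; quasi-likelihood, TMM, filterByExpr, library as a block, 1 residual degree of freedom per gene), p-values being adjusted (Benjamini-Hochberg) over tested genes not used to cluster, name or place cells and a threshold of 0.05. The standard errors given with the edgeR fits were derived as the absolute log2 fold change divided by the square root of the F statistic. The fits were tested on simulated data. DESeq2 1.42.0, other scalings, filters, clusterings and strata by mt- share were alternatives; the strata and the comparisons within zones were added after the data were seen. CPM intervals are exact Poisson 95% intervals and cover counting error only. All 9 members are named in each comparison; of the brush border list, the 2 highest and 2 lowest past the threshold are. The ratio of 1 enterocyte marker by mt- share is not reported here. The members and lists were chosen with earlier results of these data known.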

Additional observations from a re-analysis of the deposited data

How the results depend on the processing

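Across the members and comparisons, 855 alternative values were computed, among them the values of a single library with the other left out. Of the 855, 26 lost the call, 35 gained one, 44 changed sign and 750 were counted as kept. For a tested alternative, kept means the same direction and side of the threshold. The single-library values have no test and were all counted as kept. Among them a change of sign was looked for only in called members. All 9 calls of the progenitor comparison held under every alternative run.

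The number of members called moved as follows; settings not named gave the reported number. In goblet-like cells (6 lower, 0 higher) it was 2 lower without a replicate block, 3 in cells of 1% or more mt- UMIs, and 5 with DESeq2 (without Ezr), with an mt- limit of 10% and after thinning (both without Cdhr2); 1 was higher (Eps8) with the limit of 10%. In enteroendocrine-like cells (7 lower) it was 6 with total UMIs, without the block and in cells of 1% or more, 8 with RLE size factors, finer clustering and an mt- limit of 10%, and 9 with no filter on low counts. In tuft-like cells (4 lower, 0 higher) it was 5 lower with an mt- limit of 10%, and the higher count was 2 with total UMIs, 2 without the block, 2 with DESeq2, 3 with a limit of 10%, 1 with a limit of 50%, 2 after thinning and 1 in cells of 1% or more. In the upper zone (5 higher) it was 2 without the block, 4 with finer clustering, with a limit of 50% and in cells of 1% or more, 7 with a limit of 10%, and 6 with RLE size factors, DESeq2, coarser clustering, fewer high doublet scores, thinning and in cells under 1%. By mt- share (3 higher, 0 lower) it was 1 higher without the block, 2 with no filter on low counts (without Cdhr5) and within the upper or lower zone alone, and 1 lower with a limit of 50%, 1 after thinning, 2 for 5% or more against under 1% and 4 in the lower zone alone.

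Log2 values of the other sign were, in goblet-like cells, Eps8 -0.047 with scaling by total UMIs, Eps8 -0.10 with no filter on low counts, Eps8 -0.026 with finer clustering, Eps8 -0.0060 with the 6% highest doublet scores left out, Cdhr5 0.16 with an mt- limit of 10%, Eps8 -0.16 with an mt- limit of 50%, Cdhr5 0.32 with thinning to 1000 UMIs, Eps8 -0.30 with cells of 1% or more, Cdhr2 0.33 and Cdhr5 0.018 with cells under 1%. In enteroendocrine-like cells it was Ush1c 0.070 with scaling by total UMIs, and in tuft-like cells Ush1c 0.24 with scaling by total UMIs, Cdhr2 -0.050 with cells of 1% or more. Between zones they were Myo1a -0.12 with finer clustering, Myo1a -0.31 and Ush1c -0.020 with an mt- limit of 50%. By mt- share they were Ush1c -0.0069 with RLE size factors, Myo1a 0.10 with scaling by total UMIs, Vil1 -0.091 and Ush1c -0.11 with no filter on low counts, Ush1c -0.0067 with DESeq2, Vil1 -0.11 and Ush1c -0.053 with finer clustering, Ush1c -0.013 with the 6% highest doublet scores left out, Vil1 -0.23, Pls1 -0.053, Ush1c -0.10 with an mt- limit of 50%, Vil1 -0.19, Pls1 -0.087, Ush1c -0.12 with thinning to 1000 UMIs, Vil1 -0.20, Pls1 -0.021, Ush1c -0.13 with 10% or more against under 5%, Vil1 -0.21, Pls1 -0.082, Ush1c -0.21 with the upper zone alone, Vil1 -0.90, Ezr -0.64, Pls1 -1.06, Ush1c -0.40 with the lower zone alone, Vil1 -0.53, Ezr -0.050, Pls1 -0.46, Ush1c -0.32 with 5% or more against under 1%. None of these members had passed in the reported fit except Cdhr2 in goblet-like cells; the cause was not tested.

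Library is the block of each fit because both class sums come from the same suspension; with 1 group of samples no numbers pair samples across groups. With 1 library left out, the other library's own ratio is a value with no test, and no called value changed sign. Enteroendocrine-like cells gave no value at coarser clustering, with an mt- limit of 50% or under 1%, nor did tuft-like cells under 1% (8 and 2 cells) or the mt- comparison with a limit of 10%. Tuft-like and enteroendocrine-like values rest on 18 and 8, and 24 and 11, cells, so their counting intervals are wide.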
